A study of Mus musculus with 22 samples.

Results

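Chromatin accessibility after TERRA knockdown was measured by ATAC-seq in 4 libraries of mouse embryonic stem (ES) cells, 4 of the 16 libraries of the series with a peak list. They were 2 libraries of TERRA KD cells and 2 of scramble KD cells, all 16.7 ES cells, a female line from a cross of CAST/Ei with 129/Sv/Jae that was grown on feeder cells and separated from them before use. Both conditions received LNA gapmers, antisense oligonucleotides that direct RNase H to an RNA: those of TERRA KD were antisense to TERRA, those of scramble KD had a scrambled sequence, and cells were collected 12 h later. A single cell line was used, its reads were aligned to the C57BL/6 reference, and the lists hold no RNA, so the level of TERRA itself was not measured here. The lists were chosen by their labels, and held 366011 peaks in all, of 1581404 peaks in the 16 lists.

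Telomeres are themselves transcribed, and the product, TERRA, carries the G-rich telomeric repeat as RNA. It associates with telomeres and with sites elsewhere in the genome, can fold into a G-quadruplex (G4), a stack of guanine quartets, and binds the chromatin remodeler ATRX. In ATAC-seq the Tn5 transposase inserts adapters into DNA that is free of nucleosomes, so peaks of reads mark open chromatin at promoters, enhancers and insulators. In ES cells most active promoters are CpG-rich and open, while the promoters of terminally differentiated functions, such as olfactory receptors, are closed. The comparison of the conditions addresses whether chromatin opened or closed when TERRA was lost.

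The labelled cell type was checked against marker genes. A peak lay within 1 kb of the transcription start site (TSS) of 28, 28, 29 and 28 of 30 pluripotency genes in scramble KD replicates 1 and 2 and TERRA KD replicates 1 and 2, the order used throughout. Of 18 feeder fibroblast markers 10, 10, 8 and 11 had a peak. Col3a1, Col6a1, Pdgfra, Postn, Lum and Fap had none in any library, while 8, among them Col1a1 at percentiles of 62.7 to 70.4, Col1a2, Thy1, Twist1 and Snai2, had one in all 4 lists. Whether feeder cells had a part in the values was not tested. The counts of tags behind the lists, after removal of duplicates, were 5976014, 7499296, 6615112 and 7883648, and the lists held 78571, 96994, 86535 and 103911 peaks, in the order of their depth. By the file names, both replicates 1 shared a sequencing lane and both replicates 2 another, though the labels do not pair them. Scramble KD replicate 1, the shallowest, had the shorter tags, 141 against 150 bp. It also stood apart at sites found in all 4 lists, where its pileups gave a Spearman's rho of 0.815 to 0.839 with the other 3 libraries, against 0.872 to 0.898 among those, a description across 55627 sites that share a genome and are not independent. With 2 libraries a condition the two-sided exact permutation test cannot give a p below 0.333, so no difference could pass 0.05, and nothing in the labels says that replicates were separate cultures.

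The windows of 200 bases that follow, from the plus strand of GRCm38 as held by RefSeq, show examples of the sites compared. Peaks were merged into sites wherever they shared a base, and a site is called TERRA-only when both TERRA KD lists and neither scramble KD list held a peak there, or scramble-only in the opposite case. Capitals mark matches, on either strand, of short motifs that were searched for. The first is the TERRA-only site of highest rank far from a TSS, the second the scramble-only site of highest rank near a TSS, and the third, which holds none of these motifs, a promoter site near the top of all 4 lists. The scramble-only site of highest rank far from a TSS and the highest constant distal site are not shown. Around their summits 100% and 97% of the 201 bp was masked as repeats. At the first site shown 54.7% was masked too, and the third window holds a stretch that recurs within it.
TERRA-only, intergenic upstream of Pou5f1, chr17:35502644-35502843: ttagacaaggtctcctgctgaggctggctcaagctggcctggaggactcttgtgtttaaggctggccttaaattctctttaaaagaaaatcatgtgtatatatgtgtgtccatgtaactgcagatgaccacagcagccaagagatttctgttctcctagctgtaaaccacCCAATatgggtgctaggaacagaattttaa
Scramble-only, intron of Crlf2, chr5:109558491-109558690: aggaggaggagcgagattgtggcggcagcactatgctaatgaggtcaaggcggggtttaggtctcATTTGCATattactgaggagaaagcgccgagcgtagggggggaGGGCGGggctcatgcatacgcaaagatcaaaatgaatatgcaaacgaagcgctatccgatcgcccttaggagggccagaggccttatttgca
All 4 lists, upstream of Erdr1, chrX:170009902-170010101: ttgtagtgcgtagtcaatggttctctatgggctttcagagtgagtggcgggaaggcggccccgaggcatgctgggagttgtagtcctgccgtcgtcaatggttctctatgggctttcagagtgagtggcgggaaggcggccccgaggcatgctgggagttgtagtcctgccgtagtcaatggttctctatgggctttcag

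Open chromatin lay in the same kinds of sequence in both conditions. Summits in the promoter-TSS window, from 1000 bp before to 100 bp after a curated transcript start, made up 13.8%, 12%, 13% and 11.1% of the lists, against 1.15% of the genome. Introns held 35.8%, 36.2%, 35.8% and 35.9% and intergenic sequence 41.7%, 42.8%, 41.9% and 44%, against 35.1% and 60.3% of the genome. Coding exons held 3.75%, 4%, 4.24% and 3.98%, and transcription end sites 1.72%, 1.73%, 1.65% and 1.77%. In each of these kinds of sequence, and in untranslated and non-coding exons, the values of the 2 conditions overlapped (exact permutation p = 0.667 or 1).

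**Figure D1:**
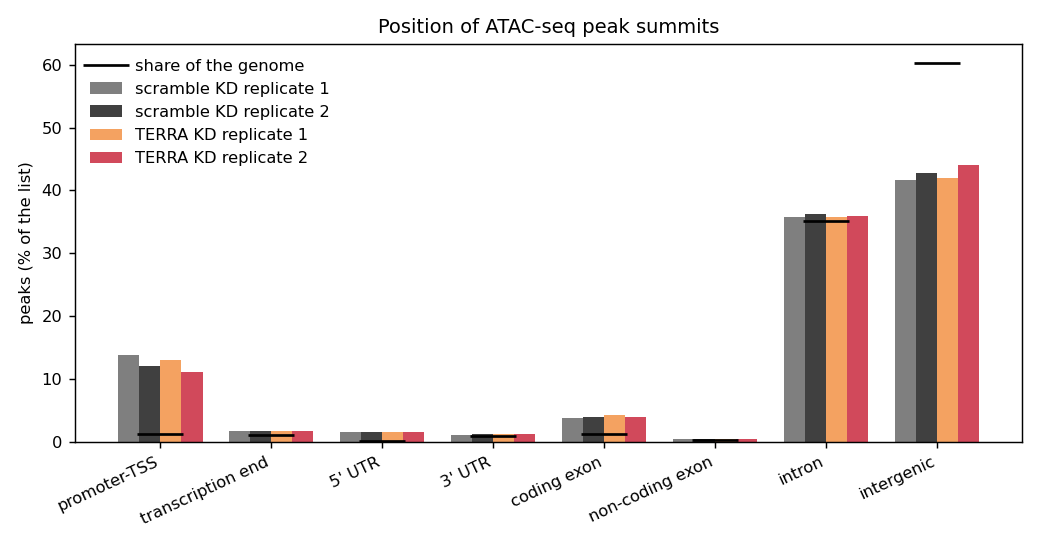
Share of the peaks of each list, on the y axis in percent, whose summit lay in each kind of sequence on the x axis, for the 4 libraries (bars) and for the genome (black lines). Promoter-TSS summits made up 11.1% to 13.8% of the lists against 1.15% of the genome, and the 4 bars of each kind are close.

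Promoters also held the highest signal. By the percentile of its summit pileup within its own list, which sets aside the scale of the pileup but still moves with the length of the list, a promoter-TSS peak had a median of 79.5, 83.1, 81.5 and 84.4, in the order of the depth of the libraries, while intergenic and intronic peaks had medians of 42.7 to 44.9. Peaks with the summit within 1 kb of a TSS numbered 15994, 17430, 17048 and 17544. Their share fell with the length of the list: 20.4%, 18%, 19.7% and 16.9%, a difference of −0.87 percentage points between the condition means (exact permutation p = 0.667). With every list shortened to the 78571 peaks of lowest p the difference was 0.22 points, and the direction thus depended on the length of the lists.

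At sites that all 4 lists held, promoters ranked slightly higher in TERRA KD. There were 14026 such sites within 1 kb of a TSS, and their median percentile among the 55627 sites in all lists was 69.6 and 72.4 for the scramble KD libraries against 73.3 and 72.6 for the TERRA KD libraries. Both TERRA KD values lay above both scramble KD values, by 1.95 points on the means (two-sided exact permutation p = 0.333, the smallest possible), by 3.75 points between the libraries of replicate 1 and 0.15 between those of replicate 2. Without scramble KD replicate 1 the difference was 0.51 points. The base composition of the sites moved with that library: the 17268 sites of at least 60% GC had median percentiles of 59.7, 66.3, 67.7 and 66.3, and the 8854 of under 45% GC had 45.5, 37.3, 32.6 and 37.8, and the part of this in the promoter value was not tested.

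The 4 lists merged into 134818 sites, of which 55627 (41.3%) had a peak in all 4 lists and 41104 (30.5%) in a single list. TERRA-only sites numbered 4344, or 3.22% of the merged sites, and scramble-only sites 2441, or 1.81%. Other pairs of lists gave counts of the same order: 7297 sites had a peak in both replicates 2 alone, 1059 in both replicates 1 alone, and 2408 and 2230 in the 2 remaining pairs of 1 TERRA KD and 1 scramble KD library. With lists of equal length TERRA-only sites numbered 3099 and scramble-only sites 2801, and the pair of replicates 2 alone had 3129. The 2 conditions were thus closer in number with equal lengths, and the part of list length was not tested. These counts are descriptions, with no test.

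**Figure D2:**
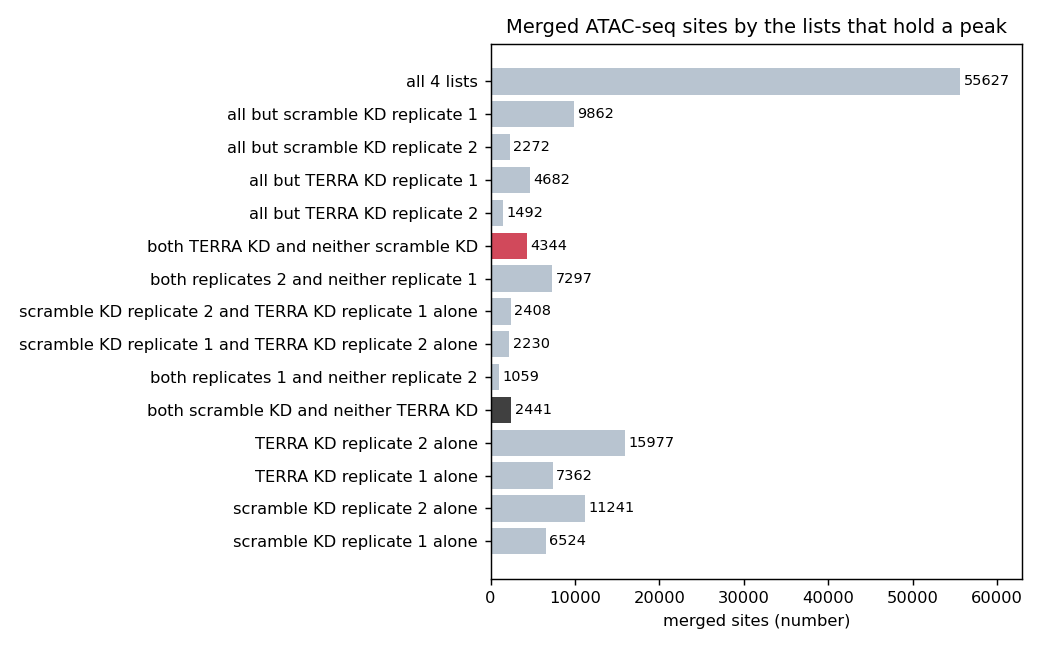
Number of merged sites, on the x axis, for each of the 15 combinations of lists that held a peak, on the y axis. Red and black bars are the sites of both libraries of TERRA KD (4344) and of scramble KD (2441). The combination of all 4 lists (55627 sites) is the most frequent, followed by TERRA KD replicate 2 alone (15977).

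Whether a peak recurred followed its rank in the list. Of the 10% of peaks with the highest pileup, 99.7%, 99.5%, 99.7% and 99.6% lay at a site that all 4 lists held, and of the lowest 10% of peaks 35.3%, 11.3%, 20.8% and 7%. This lowest group had a median pileup of 5 reads in each library, over a mean of 0.844 to 1.11 across the effective genome, and the highest group a median of 45, 57, 47 and 56. Sites of 1 condition came from the low part: of TERRA-only sites 61% and of scramble-only sites 62.6% had their lower percentile under 20, and 2.67% and 3.24% at 60 or more. Their median −log10 p was 4.66 and 4.9, against 12.6 at sites in all lists.

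**Figure D3:**
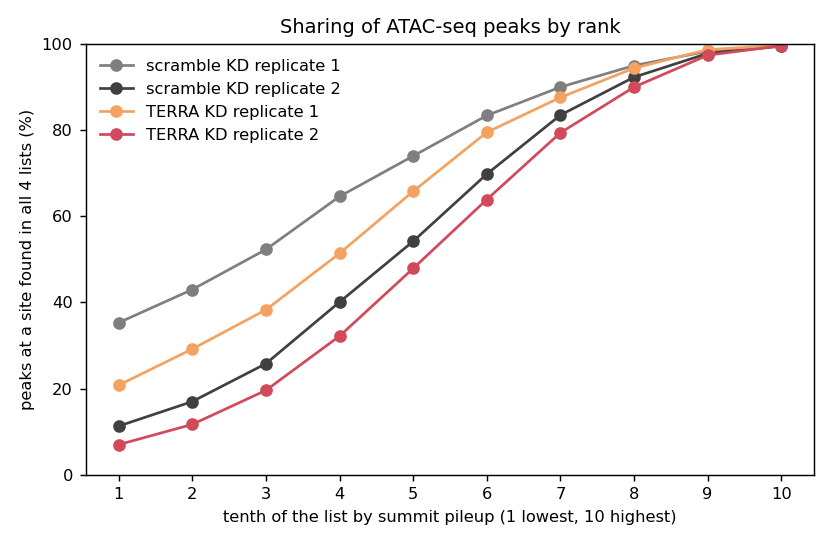
Percent of peaks, on the y axis, at a site found in all 4 lists, for each 10% of a list, ordered by summit pileup, on the x axis, with 1 line per library. All 4 lines rise from 7% to 35.3% in the lowest group to at least 99.5% in the highest, and the shortest list, scramble KD replicate 1, has the highest shares among the low groups.

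Few sites of either condition alone were at promoters. Within 1 kb of a TSS lay 270 TERRA-only sites (6.22%) and 106 scramble-only sites (4.34%), against 14026 (25.2%) of constant ones. The share was 13.8% over all merged sites and 5.9% over sites of the remaining patterns, whose median pileup was 7 as well. A low share at promoters was thus not particular to sites of 1 condition. In introns were 40.6% and 45.1%, and in intergenic sequence 47.5% and 46%. The median GC content of the 201 bp around the summit was 51.2% at TERRA-only, 47.8% at scramble-only and 53.7% at constant sites, and the ratio of observed to expected CpG was 0.252, 0.186 and 0.374. Sites of 1 list alone had a median GC of 48.3%, 49.3%, 50.7% and 49.8%, so GC content also differed between the libraries themselves.

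The GC-rich motifs were likewise fewest at scramble-only sites. The GC box GGGCGG, bound by SP and KLF factors, was in the window of 20.6% of constant, 8.98% of TERRA-only and 5.37% of scramble-only sites, and in 38.7% of windows of the same length centred on all TSS. The octamer ATGCAAAT, bound by OCT4, was in 2.03%, 1.45% and 2.62%, and the AP-1 motif TGANTCA in 5.67%, 7.46% and 6.23%. The ETS motif CCGGAAG was in 5.77%, 1.77% and 1.19%. AAGATGGCG, bound by YY1, was in 6.19% of constant sites far from a TSS but in 1.57% of those near one, and 97.5% of its 2574 distal windows were at least 50% masked as repeats, against 27.9% of all 41601. The remaining motifs searched were CCAAT (24.7%, 21.9% and 24.1%), GCATGCGC of NRF1 (1.02%, 0.506% and 0.369%), AGGGGGCG of the CTCF site (2.27%, 1.27% and 0.574%), TCAAGGTCA of ESRRB (0.694%, 0.714% and 0.819%), GAAANNGAA of interferon response elements (4.47%, 4.72% and 6.19%), AGATAAG of GATA factors (1.69%, 1.86% and 2.05%) and GGAATG of TEAD factors (10.8%, 12.3% and 12%). A match of such short letters is a description and not a bound site, and TGANTCA and GAAANNGAA have unspecified bases.

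Sites of 1 condition were also set against the G4, ATRX and H3K9me3 peak lists of the same series. Of TERRA-only sites 17% and 56.1% lay on a G4 peak of scramble KD replicates 1 and 2 and 28.5% and 27.1% on one of TERRA KD. Of scramble-only sites the shares were 8.23%, 34.6%, 14.9% and 16.8%, and of all merged sites 19%, 49.4%, 28.1% and 19.8%. TERRA-only sites thus lay on both sides of the share over all sites, and scramble-only sites, whose GC content was lower, below it in each list. With ATRX the shares were 1.24%, 0.552%, 6.31% and 3.27% of TERRA-only and 0.696%, 0.533%, 3.56% and 2.42% of scramble-only sites, beside 0.763%, 0.551%, 6.69% and 3.25% of all sites. With H3K9me3 they were 6.74%, 4.4%, 6.38% and 5.46% against 3.89%, 3.03%, 3.81% and 2.66%, beside 5.89%, 3.73%, 6.69% and 4.63% of all sites. The ChIP lists differ in length, from 7321 to 389434 peaks, so shares were not compared between them.

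Telomeric-repeat tracts had a peak more often in both TERRA KD lists than in both scramble KD lists. GRCm38 holds 362 uninterrupted runs of at least 4 hexamers TTAGGG, on either strand, with a median of 7 and at most 88 copies. A peak overlapped 181 and 196 of them (50% and 54.1%) in the scramble KD lists against 214 and 228 (59.1% and 63%) in those of TERRA KD. The merged sites on a tract with a peak of each list numbered 100, 115, 129 and 140, so several tracts could share a site and are not separate units. The 2 conditions did not overlap. Within each condition the deeper library had the larger number, while TERRA KD replicate 1, shallower than scramble KD replicate 2, had more than it. The part of depth was not tested. The difference of the means was 8.98 percentage points (two-sided exact permutation p = 0.333, the smallest possible). It was between 6.91 and 11 with any 1 library left out, and 7.73 with lists of equal length. As the conditions did not overlap, leaving out 1 library could change the size of the difference but not its sign. The tract values were added after seeing the data.

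At the sites on tracts the signal within the lists moved in the same direction. Of 150 merged sites on a tract, 94 were in all 4 lists, and their median percentile among all constant sites was 56.7 and 52 with the scramble gapmer against 67.7 and 66.3 after TERRA KD. Between libraries of the same number, 81 of the 94 sites ranked higher in TERRA KD in replicate 1 and 82 in replicate 2. Over all 55627 constant sites 28967 and 28594 did. The tract sites carry the same hexamer and are not independent. At 61 sites (64.9%) both TERRA KD ranks lay above both scramble KD ranks, and at 1 site (1.06%) below, where over all 55627 constant sites the shares were 19.9% and 17.6%. The difference of 12.7 points (exact permutation p = 0.333) was between 10.4 and 15 with any 1 library left out, which could not change its sign as the conditions did not overlap. The median GC content of these sites was 49.3%, below that of constant sites as a whole. Of the 150 sites 12 were TERRA-only and none was scramble-only, where over all merged sites the shares were 3.22% and 1.81%. Scramble KD replicate 1 alone missed 14 and TERRA KD replicate 1 alone none, beside 7.32% and 3.47% of all sites. Scramble KD replicate 2 alone missed 4 and TERRA KD replicate 2 alone 1, beside 1.69% and 1.11%.

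**Figure D4:**
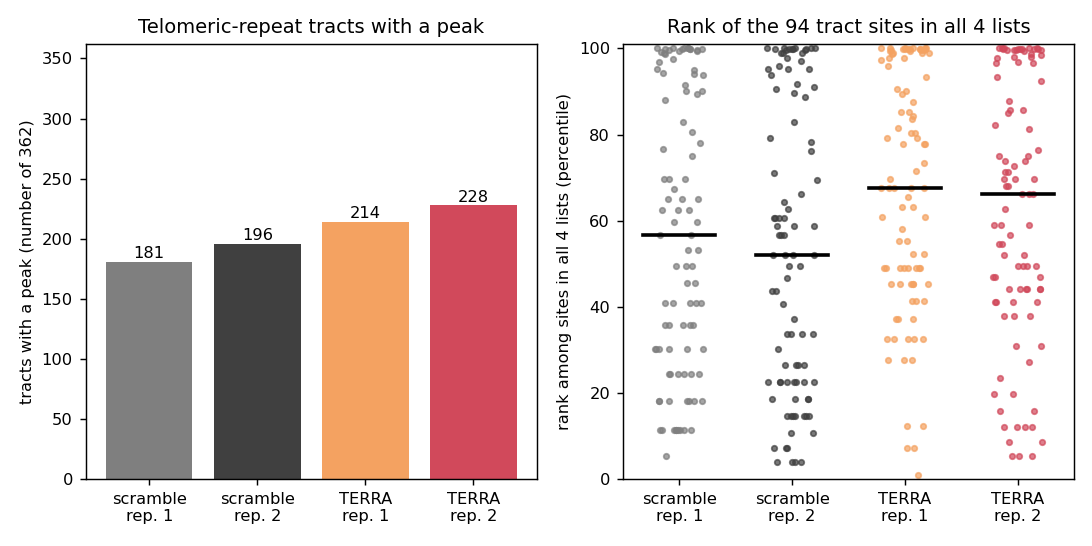
Left, number of the 362 telomeric-repeat tracts with a peak, on the y axis, for each library on the x axis. Right, percentile rank on the y axis of each of the 94 tract sites found in all 4 lists, with horizontal lines at the medians of 56.7, 52, 67.7 and 66.3.

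The sites on tracts were far from promoters and mostly on ATRX peaks. None of the 150 had its summit within 1 kb of a TSS, and 110 and 107 lay on an ATRX peak of scramble KD and 132 and 114 on one of TERRA KD, or 73.3%, 71.3%, 88% and 76%. Of all merged sites 0.763%, 0.551%, 6.69% and 3.25% did, so the share over all sites was also higher in the TERRA KD lists. H3K9me3 peaks covered 17, 120, 77 and 127. The TERRA-only tract sites were weak, with pileups of 5 to 14 in TERRA KD replicate 1 and 6 to 16 in replicate 2. The site in the intron of Sympk, at chr7:19033397-19033835, had pileups of 14 and 11 with the nearest scramble KD peak at 1395 bp, and one 68278 bp from Anxa10 on chromosome 8 had 5 and 10. Of the 150 sites 18 lay within 10 kb of the last sequenced base of a chromosome, and 17 of these were in all 4 lists, each on a different chromosome. Their median percentiles were 99.9, 99.8, 99.9 and 99.9, and both TERRA KD ranks lay above both scramble KD ranks at 15 (88.2%). The 77 constant tract sites farther inside had medians of 45.5, 43.8, 60.8 and 54.5, a difference of 13 points, with both TERRA KD ranks above at 46 (59.7%) and below at 1. None of the 12 TERRA-only tract sites was within 10 kb of an end. The constant tract of highest rank, at chr7:145340776-145341579 and 26357 bp from Mrgprd, had pileups of 244, 256, 284 and 296. Reads of a tract and of the telomeres proper, which carry the same hexamer, cannot be told apart in a peak list.

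Other sites marked by the ChIP lists showed smaller shifts. The 12526 constant sites on a G4 peak of both scramble KD libraries had median percentiles of 56.7, 60.7, 63.2 and 62.8. The 24156 on a G4 peak of neither had 49.5, 46.7, 45.3 and 47, and sites on a G4 peak of only 1 of them are in neither group. Sites on an ATRX peak of both TERRA KD libraries and on no tract numbered 442 and had 69.6, 72.4, 74.9 and 73.9. The 527 sites on an H3K9me3 peak of all 4 libraries and no tract had 35.8, 33.8, 37.1 and 44.1. In the G4, ATRX and H3K9me3 groups both TERRA KD values were the higher ones, but by uneven amounts. Between the libraries of replicate 1 and of replicate 2 the G4 group differed by 6.59 and 2.04 points. The ATRX group differed by 5.37 and 1.48 points and the H3K9me3 group by 1.29 and 10.3. Constant sites of at least 60% GC differed by 8.02 and 0.09 points, and the part of base composition in these groups was not tested.

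The ends of chromosomes, to which TERRA is transcribed, held a similar share of peaks in both conditions. In the distal 1 Mb of the sequenced autosomes and X lay 666, 802, 713 and 837 peaks, or 0.848%, 0.827%, 0.824% and 0.805% of the lists. The difference was −0.02 percentage points, with both TERRA KD shares the lower ones (exact permutation p = 0.333). In the distal 5000000 bp the sign was the opposite, with 4.84%, 4.83%, 4.92% and 4.85%. Of 1074 merged sites in the distal 1 Mb, 499 were in all lists, 27 TERRA-only and 28 scramble-only. Of 6594 in the distal 5000000 bp, 2692 were in all lists, 215 TERRA-only and 121 scramble-only. Over all merged sites 41.3% were in all lists, 3.22% TERRA-only and 1.81% scramble-only. The centromere-proximal 2000000 bp held 1.99%, 2.12%, 2% and 2.1% of the peaks.

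Mid1, Erdr1 and Gm32856, which lie near chromosome ends and are named in the study, had peaks in every library, and a further transcript that it shows at a chromosome end was not analysed here. Mid1, an E3 ubiquitin ligase gene that spans the pseudoautosomal boundary in C57BL/6, had a TSS peak at the percentiles 38.6, 27.1, 29.5 and 55.9, with pileups of 9, 8, 8 and 14. These TSS values did not order by condition. Over the gene, at chrX:169685199-169990798, there were 11, 12, 12 and 14 peaks with a median percentile of 58.8, 58.4, 49.4 and 52.4, both TERRA KD values being the lower ones. Erdr1, in the pseudoautosomal region, had TSS peaks at 99.9 in each library, with pileups of 126, 162, 127 and 153. Over the gene on the X, with 2, 1, 1 and 1 peaks, the median percentiles were 95.2, 99.2, 99.3 and 99.5. Here both TERRA KD values were the higher ones, and over the gene on the Y the medians were 99, 96.4, 98.7 and 99.1. At its TSS Gm32856, near the end of chromosome 8, had 99, 99.6, 96.7 and 97.5, with pileups of 73, 105, 55 and 70. Both TERRA KD values were the lower ones. Over the gene the medians, of 2 peaks in each library, were 71.9, 84.6, 82.4 and 76.7 and did not order by condition. Over 55627 constant sites, 17.6% had both TERRA KD ranks below both of scramble KD.

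Of the other genes that the study named, Flcn, the folliculin tumor suppressor, was at 94.7, 90.1, 95.2 and 94, and Nfe2l2, the master regulator of the oxidative stress response, at 96.8, 98.2, 98.5 and 98.5. Cxcl14, a chemokine, was at 31.2, 81.3, 68.1 and 61.6, and Ltbr, the lymphotoxin beta receptor, at 31.2, 52.1, 42.7 and 39.7. For both, scramble KD held the lowest and the highest value. Bcl6, a transcriptional repressor of B cells, had a peak in both replicates 2, at 48.4 and 52.5, and in neither replicate 1, and Lmo4, a LIM-only cofactor, had none in scramble KD replicate 1 and 69.7, 65.5 and 61.6 in the others. Nfatc4, Igfbp4, Dnajb6, Ppard, Shroom4 and Itpr3 had peaks in all 4 lists at percentiles of 72.6 to 94.8. None of the 16 was TERRA-only or scramble-only.

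Shares per chromosome differed by small amounts. Of 21 chromosomes, 2 (9.52%) had a higher share of the peaks in both TERRA KD lists than in both scramble KD lists, and 4 (19%) a lower one. The chromosome of the largest difference upward was 5, with 6.06%, 6.1%, 6.28% and 6.21% of the peaks, and the largest downward was the X, with 4.1%, 4.13%, 3.96% and 4.02%. Chromosome 15 was the other higher one, and 2, 11 and 19 the other lower ones. The Y chromosome had 135, 189, 159 and 189 peaks, and none over Ddx3y, Eif2s3y, Uty or Kdm5d in any list, genes that a female line lacks. Xist, the noncoding RNA of X inactivation, held 2, 3, 2 and 3 peaks, and its antisense gene Tsix, which overlaps it, 8, 11, 8 and 13.

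At the level of genes, a peak overlapped the 1 kb on either side of the TSS of 15552, 16624, 16320 and 16812 of 26182 curated genes. Of 21000 protein-coding genes 65%, 69%, 67.8% and 69.5% had one, of 3319 long noncoding RNA genes 42.3%, 47.7%, 46.3% and 49.2%, and of 1228 microRNA genes 24%, 26.4%, 26.2% and 28.3%. The TSS of 157 genes, or 0.6% of all, was TERRA-only, and that of 63 genes, or 0.241%, scramble-only. The TSS of 294 genes had a peak in both replicates 2 alone and of 29 in both replicates 1 alone. Among protein-coding genes the counts were 102 and 43.

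Not each of these calls was a site of its own. Of the 157 TERRA-only TSS, 127 held a site that was itself TERRA-only, and at 30 the peak belonged to a site that other lists also had, or to separate sites. Bcl3, a nuclear cofactor of NF-kappa B, ranked first among the protein-coding TERRA-only genes at 91 and 94.6, but its site had pileups of 15, 37, 37 and 54, and the edge of the peak lay 1226 and 1071 bp from the TSS with the scramble gapmer, against 985 and 924 bp after TERRA KD. Ankrd13b, an ankyrin-repeat gene, was the first scramble-only gene, at 85.2 and 93.1, and its site had pileups of 27, 50, 37 and 44. For both genes the call came from the edge of the 1 kb window.

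The next TERRA-only genes by rank were Znfx1, an antiviral RNA helicase, at 84.7 and 81.7, Trp53i11, a p53-induced gene, at 72.3 and 77.4, and Cspg5, a neural proteoglycan, at 77.4 and 70.1. The nearest scramble KD peaks lay 3397 and 3406 bp from the Znfx1 TSS, and the TERRA KD peaks 10 and 289 bp from it, though not in a single site of that pattern. Fbxl12, an F-box gene, was at 81.5 and 68.2, the helicase gene Ddx19b at 65.5 and 79.6, and the kinase gene Lmtk3 at 62.7 and 68.2. Prodh2, an enzyme of hydroxyproline breakdown, was at 62.7 and 73.3, Nkx2-3, a homeobox gene of spleen and gut, at 70.3 and 61.6, and Tekt2, a protein of sperm flagella, at 62.7 and 61.6. Pileups at these 9 genes were 15 to 28 in TERRA KD replicate 1 and 16 to 29 in replicate 2.

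The scramble-only genes ranked lower. After Ankrd13b came Lst1, a leukocyte gene of the major histocompatibility complex, at 70.4 and 65.8, with a peak of 14 reads in TERRA KD replicate 1 at the same site. Tmem121 was at 50.2 and 48.4, Fhad1 at 54.8 and 44.1, and Ttc22, a tetratricopeptide-repeat gene, at 44.9 and 44.1. Pdcd4, a translation inhibitor, was at 50.2 and 39.4, Tg, which encodes thyroglobulin, at 62.3 and 39.4, Camk2n1, an inhibitor of CaM kinase II, at 38.6 and 61.1, and Racgap1, a regulator of cytokinesis, at 38.6 and 55.4. The protocadherin gene Pcdhgb2 was at 54.8 and 61.1. The sites of Pdcd4 and Tg also had a TERRA KD peak outside the 1 kb window, of 6 reads each, in replicate 2 and replicate 1.

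With stricter and shorter lists and windows of 500 and 2000 bp, 29 genes stayed TERRA-only and 6 stayed scramble-only in every setting. The protein-coding ones numbered 19 and 3. Among the 19 were Znfx1, Nkx2-3, Tekt2 and Prodh2 of those above, Trim30a, an interferon-induced gene, at 20.8 and 34.1, Mov10l1, a helicase of the piRNA pathway, at 20.8 and 27.5, and Vezf1, a zinc finger gene of vascular endothelium, at 42.7 and 55.9. The 3 were Fhad1, Ttc22 and Adam30, a testis protease gene, the last at 22.1 and 39.4.

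At TSS with a peak in all 4 lists, rank changes rarely recurred. Of 13229 such protein-coding genes, 107 (0.809%) ranked over 20 points higher in TERRA KD in both replicates, 10 (0.0756%) over 20 points lower in both, and 48 (0.363%) moved over 20 points in opposite directions. TERRA KD had the longer list in both pairs, and the median change over these genes was 2.25 points in replicate 1 and 0.44 in replicate 2. Ranked among the 13229 TSS themselves, 39 (0.295%) were over 20 points higher, 40 (0.302%) lower and 41 (0.31%) opposite, so the larger number of rises was not there without the rest of the lists. By the percentiles within the lists, the change in replicate 1 and that in replicate 2 gave an r of 0.11 across these genes, which are not independent. Over all 55627 constant sites 822 (1.48%) were higher, 1128 (2.03%) lower and 767 (1.38%) opposite. The SD of the change was 17.5 points from scramble KD to TERRA KD in replicate 1 and 13.3 in replicate 2, and between replicates of a condition it was 16.4 points for scramble KD against 13.1 for TERRA KD, so the conditions differed by about as much as the replicates did.

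The largest recurring rises started from peaks of a few reads. Krt19, a keratin of simple epithelia, was at 12, 19, 62.7 and 66.2, with pileups of 6, 7, 15 and 18. Armcx3, a mitochondrial protein gene on the X, was at 0.457, 10.3, 42.7 and 52.5, and Nlrx1, a mitochondrial regulator of innate immunity, at 12, 33.8, 59.6 and 74.7. Rab44, a GTPase gene, was at 3.91, 27.1, 65.5 and 66.2. For these 4 genes the 2 conditions did not overlap, which the choice by a change in both replicates favors.

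The largest recurring falls ended at peaks of a few reads. Ago4, an Argonaute gene, was at 44.9, 48.4, 3.74 and 3.41, with pileups of 10, 12, 5 and 5. Rgl3, an effector of Ras, was at 65.3, 74.3, 29.5 and 39.7. The olfactory receptor gene Olfr884 was at 82.1, 67.8, 36.7 and 34.1, with pileups of 24, 19, 9 and 9, and Zfp968, a zinc finger gene, at 68, 61.1, 20.8 and 34.1. The potassium channel subunit gene Kctd16 was at 74.6, 72.9, 42.7 and 39.7.

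Among the 12 gene lists, interferon response was the only one with more open TSS in both TERRA KD lists than in both scramble KD lists. Of its 23 genes 11 and 12 had a TSS peak with the scramble gapmer, against 15 and 16 after TERRA KD, while over all genes the shares, 59.4%, 63.5%, 62.3% and 64.2%, were mixed. The TERRA-only members were Cxcl10, an interferon-induced chemokine, at 3.74 and 27.5, and Mx2, an antiviral GTPase, at 29.5 and 34.1. None was scramble-only, and among all genes 0.6% of TSS were TERRA-only and 0.241% scramble-only. The nearest scramble KD peaks lay 14274 and 14276 bp from Cxcl10 and 12461 and 12396 bp from Mx2. Irf7 and Usp18 lacked a peak in scramble KD replicate 1 alone, at 39.4, 29.5 and 39.7 and at 39.4, 42.7 and 61.6 in the others. Irf9, a subunit of the interferon-stimulated transcription factor, was the highest at 95.5, 97.6, 96.5 and 96.6, and Ifit1, Ifit3, Ifnb1, Isg15, Oas2 and Sting1 had none. Mx1 had a peak in TERRA KD replicate 1 alone, Zbp1 in replicate 2 alone, and the added peaks were weak: the median percentile of the peaks was 83.2, 83.7, 52.3 and 58.7. With lists of equal length the shares were 47.8%, 47.8%, 52.2% and 65.2%. With peaks of −log10 p of at least 5 they were 43.5%, 47.8%, 47.8% and 60.9%, so the conditions then met. The list was picked out after its values were seen.

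Genes that act in ES cells were open in each library. In the pluripotency list 27 of 30 had a peak in all lists, Klf2 being the highest at 99.5, 99.6, 99.8 and 99.6, with Pou5f1 at 98, 98.6, 99.1 and 98.5. Nr5a2 had none, Esrrb had one in both replicates 1 alone, at 22.1 and 3.74, and Nanog lacked one in scramble KD replicate 1, where the nearest lay 1304 bp from the TSS. All 25 p53 targets and DNA damage genes had a peak in each list, from Phlda3 at 65.3, 65.8, 77.4 and 68.2 to Rrm2b, a ribonucleotide reductase subunit induced by p53, at 99.6, 99.7, 99.4 and 99.6. Of 25 immediate early and stress genes 23 were in all lists, Jund being the highest at 99.5, 99.7, 99.6 and 99.7, and Gdf15 had none. Neither of these lists had a TERRA-only or scramble-only member.

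The genes of ATRX, of telomere proteins and of G4 binding proteins were mostly open as well. Of 24 genes of ATRX, DAXX and H3K9 methylation 21 had a peak in all lists, with Kdm4a, an H3K9 demethylase, at 99.6, 99.6, 99.6 and 99.4, Atrx itself at 86.1, 86.1, 85.6 and 90.8, and Kdm4c with none. Of 23 genes of shelterin and telomere maintenance 21 had one, with Dkc1, the dyskerin of telomerase, at 97.9, 98.7, 97.4 and 97.8, and Zscan4c, a telomere gene of early embryos, with none. Terc, the telomerase RNA, had a peak in both replicates 2, at 63.5 and 77.4, and in neither replicate 1. All 18 G4 helicases and binding proteins had one, from Dhx36 at 22.1, 44.1, 56.2 and 44.6 to Nsun2 at 99.3, 99.6, 99.2 and 99.4.

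Lists of other kinds set the range. Of 78 cytosolic ribosomal protein genes 77 had a peak in all 4 lists, Rps19 at 99.7, 99.9, 99.8 and 99.8, and Rpl8 in both replicates 2 alone. Of 1103 olfactory receptor genes 20, 27, 21 and 31 had one, and Olfr50 was TERRA-only at 3.74 and 10.5. Of 34 lineage transcription factors 24, 29, 26 and 29 had a peak, Tfap2c being the highest at 92.4, 96.3, 92.8 and 94.3, and Myf5, Runx1, Sox17 and Spi1 had none. The feeder list had 1 scramble-only member, Dcn, which encodes the matrix proteoglycan decorin, at 12 and 19, and its highest was Snai2 at 97.6, 98.1, 96.9 and 96.1. Among all genes 0.6% of TSS were TERRA-only and 0.241% scramble-only.

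**Figure D5:**
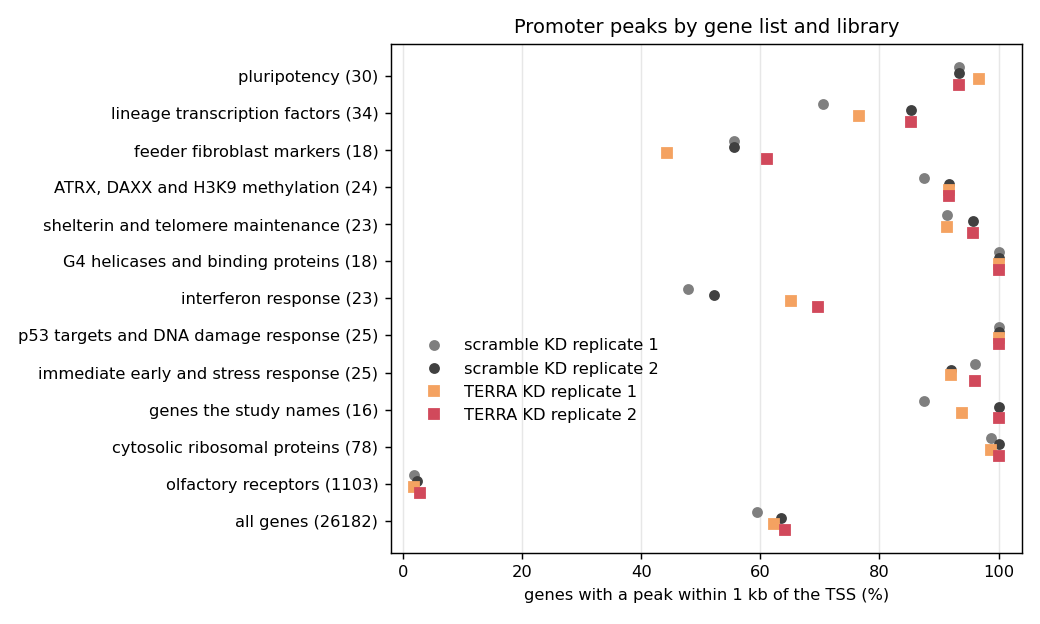
Percent of the genes of each list, on the x axis, with a peak within 1 kb of the TSS in each library (number of genes in parentheses). Circles are scramble KD and squares TERRA KD. Interferon response genes had 47.8% and 52.2% against 65.2% and 69.6%, and in the other lists the conditions overlap or tie.

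Away from promoters, the TERRA-only site of highest rank lay upstream of Pou5f1, the gene of the pluripotency factor OCT4. It was at chr17:35502604-35502910, 3288 bp before the Pou5f1 TSS, and had pileups of 30 and 36, at percentiles of 86.4 and 87.2. The nearest scramble KD peak lay 811 bp away. The next were in an intron of Gm3417 (29 and 44 reads), 1579 bp upstream of Arrdc2 (29 and 34), 2892 bp upstream of Ssbp4 (35 and 33) and in an intron 2633 bp inside Zscan10 (27 and 44), with the nearest scramble KD peak at 309 to 2885 bp.

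The same held near promoters. The TERRA-only site with its summit 216 bp upstream of the Gapdh TSS, at chr6:125166381-125166834, had 35 and 34 reads, and a scramble KD peak lay 362 bp from it. A second lay 772 bp inside Smarca5, an ISWI remodeler gene, with 20 and 24 reads and the nearest scramble KD peak at 361 bp.

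The scramble-only sites of highest rank had neighbors of the other condition too. The first, in a repeat at chr10:27821809-27822263 and 205135 bp from Lama2, had 53 and 77 reads and a TERRA KD peak at 566 bp. One 8009 bp from the TSS of Eef1a1, a translation elongation factor gene, had 50 and 56 reads and a TERRA KD peak at 925 bp. Sites within or next to Erdr1 on the Y and X had 56 and 57 and 35 and 45 reads, with TERRA KD peaks at 1049 and 393 bp. The site in the intron of Crlf2, at chr5:109558226-109558805, had 33 and 42 reads, and the nearest TERRA KD peak began 6 bp from it.

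Such proximity grew with rank. Of TERRA-only sites with a lower percentile under 20, 14% had a scramble KD peak within 1 kb, and of those at 60 or more 49.1%. For scramble-only sites the shares were 14.3% and 39.2%. No TERRA-only site at 60 or more, and 3 scramble-only sites, lay over 5 kb from the other condition's peaks. The isolated sites of highest rank, named after their values were seen, were a scramble-only site in an intron of Ntm, an immunoglobulin-domain adhesion gene, at chr9:29173796-29174395 with 24 and 27 reads and the next TERRA KD peak at 48674 bp, and a TERRA-only site at chr8:113489361-113489979, 27649 bp from 4930571O06Rik, with 13 and 21 reads and the next scramble KD peak at 24593 bp.

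The highest sites of all were shared, with pileups that are not scaled between libraries. The highest in all 4 lists, at chr2:98666170-98667365, was a repeat with 437, 433, 445 and 449 reads at the summit, and the next, at chr1:24611624-24616098, had 435, 421, 456 and 413. Near TSS the highest was in an intron of Sfi1, a centrosome gene, at chr11:3192704-3193881 with 233, 291, 282 and 311 reads, followed by promoter sites of Gm3417 with 138, 167, 140 and 153, of Erdr1 on the Y with 137, 164, 138 and 158, of Gm3448 with 128, 176, 148 and 171, and of Tomm40, a mitochondrial import gene, with 134, 166, 134 and 174.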

How the data were processed

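ATAC-seq libraries were made from 16.7 ES cells 12 h after nucleofection. Groups came from titles and the knockdown label, since the source name reads TERRA KD for every library. Per the study's methods, reads were trimmed (Trim Galore 0.5.0), aligned to GRCm38/mm10 (Bowtie2 2.3.4.1) and handled with SAMtools 1.9 and deepTools 3.1.1. The authors called peaks per library without input at a p of 0.01, with MACS 2.2.7.1 per the file headers, with paired-end mode off. A shift of reads for Tn5 is not given in the sources used here. In the deposited lists each peak has a pileup signal, read at its summit and not scaled between libraries, a −log10 p-value and a fold enrichment over the library's own local background. Since that background is local, a peak beside a strong one is called less readily.

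Peaks sharing a base were merged into sites. Signal was compared as the percentile of pileup within a list. TSS, 26182 genes and sequence came from RefSeq's GRCm38 annotation. Conditions were compared by the two-sided exact permutation test over libraries. The code was tested on simulated data. Intervals were not computed, as peak lists hold no counts of trials.

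Named genes were those the study names, up to 10 protein-coding TSS of each condition ordered by their lower percentile, up to 5 with the largest recurring rank change in each direction, and the highest and lowest of each list. Some items that this rule names are not reported here. Members, lists and tests were chosen with earlier results of these data known. The tract and interferon values and the 1 kb distance to the other condition were added after seeing the data. Python 3.11.15, numpy 2.4.6, pandas 2.3.3 and matplotlib 3.10.9 were used.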

Additional observations from a re-analysis of the deposited data

How the results depend on the processing

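Over 100 alternatives for 11 results, 73 kept the direction of a difference or left a count within 1.5 times, 6 reversed a direction and 21 moved a count by over 1.5 times. Part of the 73 could not come out otherwise. The mean of the 2 paired differences equals the difference of the condition means. Where the conditions do not overlap, as for distal share, promoter rank, tracts and interferon genes, leaving out 1 library cannot change the sign. A kept direction is not a kept size: the promoter rank difference, 1.95 points, was 0.514 without scramble KD replicate 1, the distal share difference −0.0017 over 100000 bp, and the interferon difference of 17.4 points 8.7 with peaks of −log10 p of at least 5. The log2 ratio of peak numbers, 0.119, ranged from −0.0326 to 0.271 with 1 library left out, and reversed without scramble KD replicate 1 or TERRA KD replicate 2. The TSS share difference, −0.871 points, was 0.22 with lists of equal length and −2.28 to 0.538 with 1 library left out. The distal share difference, −0.0225 points, was 0.0467 over 5000000 bp. TERRA-only sites numbered 6641 to 20579 and scramble-only sites 3950 to 13816 with 1 library left out, and TERRA-only TSS 264 to 898 (102 among protein-coding genes) and scramble-only TSS 113 to 311, since fewer lists then had to agree. Within replicate 1 and replicate 2, with the replicate number as a block, 25038 and 25315 sites were TERRA-only and 16615 and 17987 scramble-only. The paired differences over the replicate block were 0.119, −0.871, −0.0225 and 1.95 for peak number, TSS share, distal share and promoter rank, each with an exact sign-flip p of 0.5, the smallest that 2 pairs allow. Deviations of same-numbered libraries gave r = 0.191 over 2581 stretches of 1 Mb, and same-numbered libraries shared a sequencing lane by the file names, though the labels do not pair them. Sites of 1 condition had a median pileup of 7 reads, and depth was not varied here. The ranks of promoters among themselves were added after seeing the data.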
